A study of Mus musculus with 13 samples.

Results

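Expression of 6 genes of retinoic acid signalling, Cyp26b1, Rara, Rarb, Rxra, Rxrb and Rxrg, was followed in the mouse retrosplenial cortex, a midline cortical area, in dissociated neurons and in brain sections. The genes were chosen by name, with their levels in these data already known, as the members with a row in either deposited count table. Of the 6, 5 had a row among the 15114 genes of the cell table, where Rxrg had none, and all 6 had a row among the 32285 genes of the section table. Every gene of the cell table had a count in at least 10 cells, so a gene without a row may still have had counts in fewer. The neurons came from wild-type B6 mice and were collected from acute slices, from which tissue was microdissected, dissociated and pooled. They numbered 765 cells in 11 samples from 3 animals, and the column names placed 256 of them at an anterior, 217 at a medium and 292 at a posterior dissection level. The sections were cut from frozen brains of wild-type mice and profiled on Visium slides, where a spot captures RNA from an area that can hold several cells. The 2 sections, called S4 and S8 here, held 1022 and 951 spots. No treatment is named in the labels, and neither age nor sex is given there, so levels were compared across groups of cells, dissection levels and groups of spots.

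Retinoic acid is made from vitamin A by retinol and retinal dehydrogenases and acts inside the nucleus. It binds the retinoic acid receptors RARα, RARβ and RARγ, which sit on DNA as heterodimers with a retinoid X receptor, RXRα, RXRβ or RXRγ. RXRs also pair with other nuclear receptors, among them the thyroid hormone receptors and the NR4A group. CYP26 enzymes, including CYP26B1, oxidise retinoic acid and so end its action, and cells that hold them act as sinks. In the brain the pathway is known for patterning the embryo and, in the adult, for its part in synaptic scaling and in interneuron and cortical maturation.

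Rarb is itself a textbook target gene of retinoic acid, and its promoter is shown here because it carries the one response-element match found among the 6 genes. The RefSeq window of Rarb (GRCm38.p6) held, on the gene's strand, a direct repeat of the nuclear receptor core sequence with 5 bases between the copies, the arrangement called DR5. The stretch chr14:16575483-16575559, on the minus strand, is given 5′ to 3′ with the repeat in capitals.
Rarb promoter: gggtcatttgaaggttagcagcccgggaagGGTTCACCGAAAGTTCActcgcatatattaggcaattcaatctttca
The repeat lies 53 to 37 bases before the annotated start. A DR5 on either strand was present in 32 of 32851 promoter windows of equal length (0.0974%), a repeat with 1 base between the copies (DR1) in 0.222% and one with 2 bases (DR2) in 0.268%. No match to DR1, DR2 or DR5 was found in the windows of the other members (1 for Cyp26b1, 2 each for Rxra, Rxrb and Rxrg, and 4 for Rara). Only the short window around each annotated start was searched, for a fixed pattern of the core sequence. Elements elsewhere or of looser match were not looked for. A match describes the letters of these windows, and binding was not measured.

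Cells were grouped by expression without the members and the other retinoid genes, which gave 10 clusters numbered by size. Cluster 5 (74 cells) was led by Osr1, Oprk1 and Car12 and is called layer 6 IT-like (intratelencephalic), cluster 6 (71 cells) by Syt6, Rprm and Foxp2 and is called layer 6 corticothalamic-like, and cluster 9 (11 cells) by Cplx3, Moxd1 and Ctgf and is called layer 6b-like. Crym, also a marker of corticothalamic neurons, was higher in clusters 4 and 7 than in cluster 6. The name of cluster 6 thus rests on Syt6, Rprm and Foxp2. The other clusters are given by number. Calb1 and Myh7 led cluster 1 (202 cells), Thsd7a and Tnnc2 cluster 2 (122), Ptprm and Deptor cluster 3 (94), and Qrfpr and Pdyn cluster 4 (76). Nrtn and C1ql2 led cluster 7 (65), Cxcl14 and Cbln4 cluster 8 (39), and Amigo2 and Kcnip1 cluster 10 (11). All 76 cells of cluster 4 were posterior, and 2 of them came from animal 3. The excitatory marker Slc17a7 had a count in 756 of 765 cells, and the inhibitory markers Gad1 and Gad2 in 46 and 13. Totals per sample ran from 2306470 to 15974543 counts, and the median total per cell was 65843 in animal 1, 132797 in animal 2 and 185995 in animal 3.

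Cyp26b1, which encodes the retinoic acid-degrading enzyme, was found in few neurons, and most of these were layer 6 corticothalamic-like. It had 48 counts in 12 of 765 cells. Of these cells 9 lay in cluster 6, with 1 to 8 counts each and 35 in all, 2 in cluster 1 and 1 in cluster 3. The share with a count was 12.7% in cluster 6 (9 of 71 cells, exact 95% binomial interval 5.96% to 22.7%) and 0.990% in cluster 1 (0.120% to 3.53%). By animal, cluster 6 had 0 of 15, 5 of 28 and 4 of 28 cells with a count in animals 1, 2 and 3. All binomial intervals given here pool the cells of the animals and do not cover the spread between animals. With each cell thinned to 54512 counts, which left out 77 shallower cells (17 of them in cluster 6), the share in cluster 6 was 11.1%. No count was seen in clusters 2, 4, 5, 7, 8, 9 and 10. Taking 3 cells of the total as the limit that a count of 0 allows, the share could be up to 2.46% in the 122 cells of cluster 2 and up to 27.3% in the 11 layer 6b-like cells. The exact binomial intervals drawn in the plot of shares reach 2.98% and 28.5%.

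Counts were summed per animal and scaled to the size of the sum, in CPM. Cyp26b1 in cluster 6 then stood at 0 in animal 1, 8.47 CPM in animal 2 and 3.08 CPM in animal 3, a mean of 3.85 ± 4.29 CPM (SD, n = 3). The 15 cells of animal 1 in this cluster held 538043 counts, where 3 counts would make 5.58 CPM. Counts came clumped, up to 8 in a single cell of cluster 6, so a level above 5.58 CPM could also have been missed there. The mean over the other 7 clusters with at least 2 animals was 0.0668 CPM, which gives a fold of 57.7. No gene of the cell table had a count in fewer than 10 cells. Of the 12 cells with Cyp26b1, 9 lay in cluster 6, so its row depends on the cluster where it is high. The fold is therefore a description only. Without animal 2 the mean of cluster 6 was 1.54 CPM. The ranges of the animals in clusters 6 and 3 overlapped, since 1 cell with 10 counts put animal 3 at 1.25 CPM in cluster 3. Cyp26b1 was thus the 1 member of the 5 whose highest cluster reached 4 times the mean of the others, a size that 16% of all genes in the table reached (2424 of 15114). The genes whose level followed Cyp26b1 most closely over the 22 sums per animal and cluster were Syt6 (Pearson r = 0.75), Dhrs3 (0.72) and Sema5a (0.70). These correlations rank 9261 genes, share the libraries' depth and clusters, and carry no p.

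**Figure D1:**
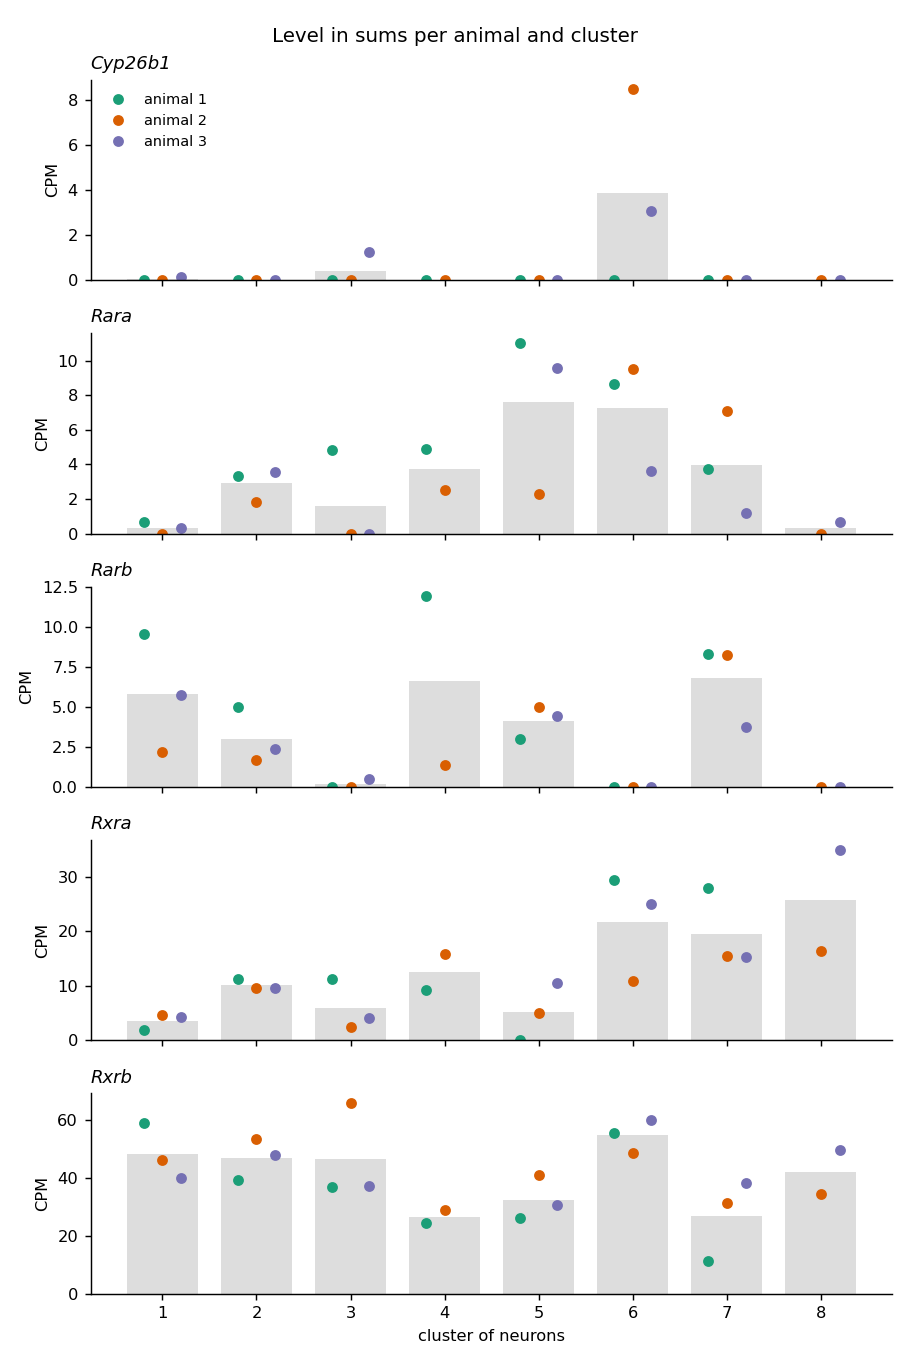
Level in CPM (y axis, linear, from 0) of the 5 members in the cell table, for sums of counts per animal and cluster (x axis, clusters 1 to 8); bars are means over animals and points are animals, with 2 animals in clusters 4 and 8. Cyp26b1 rises above the axis mainly in cluster 6, where Rarb lies at 0 in all 3 animals, while Rxrb is present in every cluster.

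RARβ and RARα, the ligand-binding partners, had different high and low clusters. Rarb had no count in any of the 71 cells of cluster 6, which by the same limit allows a share of up to 4.23% (5.06% by the exact interval), and stood at 0 in each of the 3 animals. Its highest mean was in cluster 7, with 8.36, 8.29 and 3.76 CPM in animals 1, 2 and 3 (6.80 ± 2.64, SD, n = 3). The order rests on summing by animal: in sums per sample the 1 sample with 10 cells of cluster 7 had 0.372 CPM, and cluster 4 led at 6.40 CPM (5 samples). By animal, cluster 4 followed at 6.66 ± 7.48 CPM (n = 2), where animal 1 had 11.95 CPM and animal 2 had 1.37 CPM. In cluster 1 Rarb stood at 9.57, 2.21 and 5.74 CPM (5.84 ± 3.68, n = 3), in cluster 5 at 4.15 ± 1.03 CPM and in cluster 2 at 3.02 ± 1.74 CPM. Cluster 8 had 3 counts in 1 of 39 cells. Cluster 3 had 0.166 ± 0.288 CPM from 4 counts in 1 cell, and the lowest animal of cluster 2 (1.70 CPM) lay above the highest of cluster 3 (0.499 CPM). All other neighbours in this order overlapped between animals. By share of cells Rarb was found in 13.8% of cluster 7 (9 of 65), 14.5% of cluster 4 (11 of 76), 9.46% of cluster 5 and 7.43% of cluster 1. At the fixed depth these shares were 11.1%, 12.5%, 6.25% and 5.35%. The levels most like that of Rarb were those of the potassium channel gene Kcnj4 (r = 0.75), of Slc26a4 (0.74) and of Rwdd3 (0.74). No cell had counts of both Rarb and Cyp26b1: 0 of the 12 cells with a Cyp26b1 count had one of Rarb, against 48 of all 765 cells. With so few cells and so low a share of Rarb, this does not show that the 2 genes exclude each other, and it was not tested.

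Rara was highest in clusters 5 and 6. In cluster 5 it stood at 11.05, 2.28 and 9.57 CPM in animals 1, 2 and 3 (7.63 ± 4.69, SD, n = 3), and in cluster 6 at 8.64, 9.53 and 3.64 CPM (7.27 ± 3.17). It was lowest in cluster 1, with 7 counts in 202 cells (0.316 ± 0.319 CPM), and in cluster 8, with 1 count in 39 cells. The lowest animals of clusters 5 and 6 lay above the highest of cluster 1 (0.638 CPM). Between these ends came clusters 7 (3.99 ± 2.97 CPM), 4 (3.73 ± 1.68, n = 2), 2 (2.91 ± 0.960) and 3 (1.60 ± 2.78, from 6 counts in 1 cell of animal 1), and every pair of neighbours overlapped. A count of Rara was present in 13 of the 65 cells of cluster 7 (20%), and the share was 18.3% for cluster 6, 16.2% for cluster 5 and 1.98% for cluster 1. At the fixed depth, the shares were 14.3%, 14.8%, 10.9% and 1.07%. In cluster 1 Rarb was found in 15 of 202 cells and Rara in 4, and in cluster 6 Rarb was found in 0 of 71 and Rara in 13. This contrast was seen among clusters and was not tested. Cyb5r1 (r = 0.73), Rasgrp1 (0.72) and the semaphorin receptor gene Nrp1 (0.71) had the levels most like that of Rara. Rarg, the remaining RAR gene and no member of the set, had means of 7.17 ± 4.42 CPM for cluster 6 and 7.11 CPM for cluster 2, against 1.08 to 3.31 CPM in the others.

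**Figure D2:**
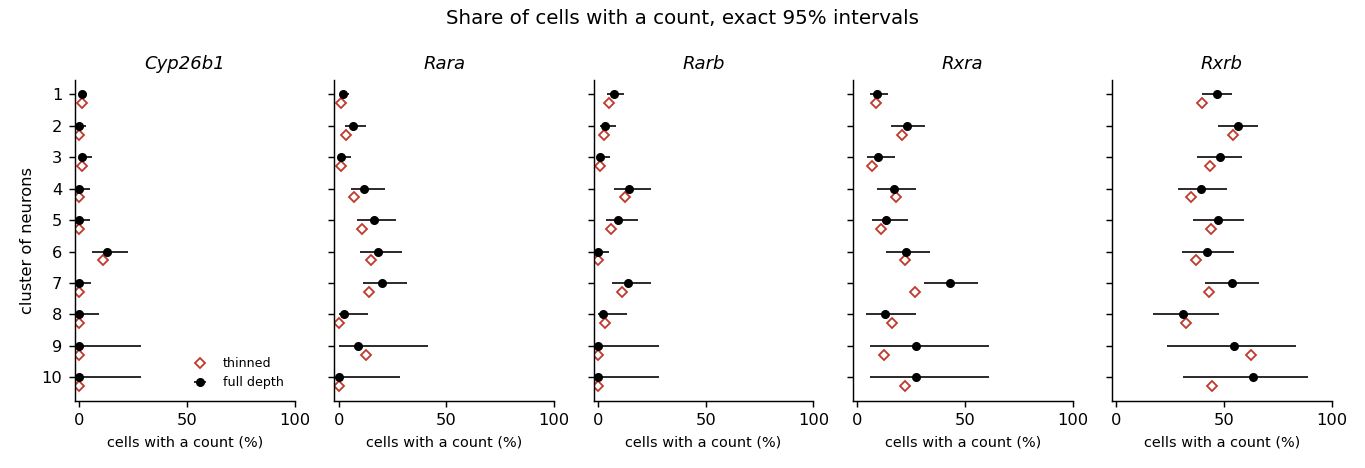
Percent of cells with a count (x axis) for each of the 5 members in clusters 1 to 10 (y axis); black points with bars are shares at full depth with exact 95% binomial intervals, and open red diamonds are shares with each cell thinned to 54512 counts. The intervals pool the cells of the animals and do not cover the spread between animals. Rarb is at 0 in cluster 6 where Cyp26b1 is at 12.7%, and the share of Rxra in cluster 7 is 43.1% at full depth and 27.0% after thinning.

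RXRα and RXRβ, the common heterodimer partners, were detected in more cells than either RAR. Rxra had a count in 134 of 765 cells (17.5%), and its share was highest in cluster 7 (28 of 65 cells, 43.1%, interval 30.8% to 56.0%). By animal these were 3 of 10, 11 of 24 and 14 of 31 cells, a spread that the interval does not cover. The cells of cluster 7 were also the deepest, with a median total of 223781 counts, and at the fixed depth the share was 27.0%, against 22.2% for cluster 6 and 20.9% for cluster 2. Clusters 1 and 3 were lower, at 8.56% and 7.06%. In sums per animal Rxra stood at 29.4, 10.9 and 24.9 CPM in cluster 6 (21.7 ± 9.62, SD, n = 3) and at 27.9, 15.5 and 15.3 CPM in cluster 7 (19.6 ± 7.19). Its highest mean, 25.6 ± 13.2 CPM in cluster 8 (n = 2), rested on 5 of 39 cells with 4 to 27 counts each. It came from 16.3 CPM in animal 2 and 35.0 CPM in animal 3, each above clusters 6 and 7 of the same animal. Animal 1, which was high in clusters 6 and 7, had too few cells of cluster 8 for a sum. In the matching cluster at a coarser clustering (resolution 0.5) the mean was 4.95 CPM, below the means of clusters 6 and 7. Cluster 1 was lowest, at 1.91, 4.65 and 4.34 CPM (mean 3.64), below every animal of clusters 2, 4, 6, 7 and 8. Between these came cluster 4 (12.5 CPM, n = 2), cluster 2 (10.2 ± 0.933 CPM), cluster 3 (5.94 ± 4.66 CPM) and cluster 5 (5.16 ± 5.23 CPM, with 0 in animal 1), and all neighbours in the order of clusters overlapped. Limk2, a kinase that acts on cofilin, had the level most like that of Rxra over the 22 sums (r = 0.79), followed by Alkbh2 (0.79) and Akap12 (0.79).

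Rxrb was present throughout, with a count in 363 of 765 cells (47.5%) and in 30.8% to 63.6% of each cluster. Over clusters 1 to 8, its means ran from 26.6 ± 3.29 CPM in cluster 4 (n = 2) to 54.5 ± 5.85 CPM in cluster 6 (SD, n = 3). Clusters 9 and 10, with 11 cells each, had too few cells for sums per animal. Pooled over animals, Rxrb stood there at 50.3 and 90.3 CPM. Cluster 7 was near the low end, at 11.1, 31.2 and 38.1 CPM in animals 1, 2 and 3, and cluster 5 followed at 32.5 ± 7.54 CPM. Clusters 1, 2 and 3 had means of 48.2, 46.7 and 46.6 CPM, and cluster 8 one of 41.8 CPM (n = 2). In cluster 6 the 3 animals stood at 55.3, 48.4 and 59.98 CPM, all above those of clusters 4, 5 and 7. The fold of its highest cluster over the mean of the others was 1.42, against a median of 1.83 over all genes, and the folds of Rxra, Rarb and Rara were 2.28, 2.40 and 2.65. The genes most like Rxrb over the 22 sums were Phip (r = 0.81), Spsb3 (0.79) and Adi1 (0.76).

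Counts of both a RAR and an RXR gene were found in few of the 765 cells. Of the 62 cells with Rara, 32 had a count of Rxrb and 14 one of Rxra. Of the 48 cells with Rarb, 27 had Rxrb and 8 had Rxra. Over all cells, 363 of 765 had Rxrb. Rara and Rarb shared 6 cells. Among the 9 cells of cluster 6 with Cyp26b1, 6 had Rxrb, 5 had Rxra and 1 had Rara. Over all 71 cells of that cluster, 30 had Rxrb, 16 had Rxra and 13 had Rara. Since a count of 0 does not show that a gene is silent in a cell, these are lower limits on the cells that hold both transcripts.

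Across the 11 samples, taken over all neurons, Rxrb ran from 32.6 CPM to 53.9 CPM with a median of 40.7 CPM. Rxra ran from 4.76 to 15.9 CPM (median 9.97). Rara ran from 1.30 to 8.34 CPM (median 2.23), and both of its extremes belonged to samples of animal 1. Rarb stood at 7.07, 7.42 and 5.63 CPM in the samples of animal 1, at 1.29 to 3.81 CPM in those of animal 2 and at 1.26 to 5.62 CPM in those of animal 3. Animal 1 was the shallowest and held 33 of the 76 cells of cluster 4; the part of depth and composition in its Rarb level was not tested. Cyp26b1 had no count in 5 samples, among them the 3 of animal 1, and its highest level was 1.21 CPM.

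Other genes of the pathway were described from lists of 55 names, of which 30 had a row in the cell table. Of these, 4 had a highest cluster at 4 times the mean of the others or more (13.3%, against 16% of all genes), and in all 4 it was cluster 6. How many of all genes at that size were highest in cluster 6 was not counted, so the shared cluster is not read as a result. Dhrs3, which reduces retinal back to retinol, stood at 1.73, 53.3 and 46.8 CPM in animals 1, 2 and 3 there (33.9 ± 28.1, SD, n = 3), and its means in the other clusters were 0 to 6.23 CPM. Rai14, a gene named for its induction by retinoic acid, stood at 135, 27.5 and 22.1 CPM in cluster 6 (61.5 ± 63.5) against a mean of 3.54 CPM in the others. Rdh12, a retinal reductase, had 15.5, 20.8 and 0 CPM, and Crabp1, a cytosolic retinoic acid-binding protein, had 20.7, 0 and 0.280 CPM, so each of these rested on some of the animals. Aldh1a1, a retinal dehydrogenase that makes retinoic acid, was low in the same cluster, with 1 count in 71 cells, and at 0 in cluster 8, while it stood at 7.97 to 20.5 CPM in clusters 1 to 5 and 7. Aldh1a2, Aldh1a3, Cyp26a1 and Cyp26c1 were without a row in the cell table, which does not show that they had no counts. Of 8 RAR and RXR cofactors, such as Ncor1 and Ncoa1, 0 reached the 4-fold size, with a median fold of 1.44, and of the 7 other nuclear receptors that pair with RXR and had a row, 0 did, with a median of 2.03. Among these, Nr4a2 was highest in cluster 6 at 105, 133 and 131 CPM (123 ± 15.7), 3.93 times the mean of the others.

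Markers of other cell types varied between clusters. Of the astrocyte markers, Gja1, Aqp4 and Gfap did not exceed 3.81 CPM in any cluster, and Slc1a3 reached 7.31 CPM in cluster 2. All 3 inhibitory markers with a row (Gad1, Gad2 and Sst) summed to 1.01 to 4.14 CPM. The 4 microglial and 3 endothelial markers had no row, which does not show that they had no counts. Oligodendrocyte markers had counts in every cluster, summing over 4 genes to 45.4 CPM in cluster 6 and to 48.4 to 197 CPM in the others. Aldoc, an astrocyte marker, ran from 13.5 CPM to 715 CPM in cluster 8. Their part in the levels of the members was not tested.

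Along the anterior to posterior axis no member passed the test. Counts were summed per animal and level and compared with edgeR's quasi-likelihood test over 13628 genes, of which 1 was called at each of the posterior and medium levels against the anterior (0.00734%). In both comparisons the called gene was Ptgds, a prostaglandin D synthase outside the pathway lists, which was lower than in the anterior sums. The fit had no term for the animal, so the sums were not paired. With the animal as a block, 14 genes were called at the posterior level, again with no member. Cyp26b1 was too low to be tested over all neurons, so that 4 members were tested; 0 passed, with 0 at an unadjusted p under 0.05 and 0 called by DESeq2. In 3 of 3 animals Rara was lower in the posterior sum, at 2.84, 1.12 and 1.11 CPM against 5.76, 3.0 and 2.78 CPM in the anterior sums. This is a log2 difference of -1.19 with an SE of 0.86 and, by edgeR, an adjusted p of 1.00 (0.51 to 1.00 over the alternatives). Values of Rara overlapped between the levels, at 1.11 to 2.84 CPM against 2.78 to 5.76 CPM. Rxrb was also lower in 3 of 3 animals, at 30.4 to 41.7 CPM against 41.4 to 48.5 CPM, with a log2 fold change of -0.22 (SE 0.23). For Rxra the value was -0.42 (SE 0.43), and it was lower in 2 of 3 animals. Rarb had a log2 fold change of 0.51 (SE 0.90) that came from animal 1, where it stood at 9.94 CPM at the posterior and 1.92 CPM at the anterior level, while it was lower at the posterior level in animals 2 and 3; without animal 1 the value was -0.82. At the medium level the 4 log2 fold changes lay between -0.19 and 0.24, with adjusted p = 0.999 each by edgeR. Cyp26b1 stood at 0, 0.381 and 0.179 CPM at the anterior level in animals 1, 2 and 3, at 0, 1.29 and 0.900 CPM at the medium level and at 0, 0 and 0.252 CPM at the posterior level. The levels differed in composition: 7 of the 71 cells of cluster 6 and all 76 of cluster 4 were posterior.

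**Figure D3:**
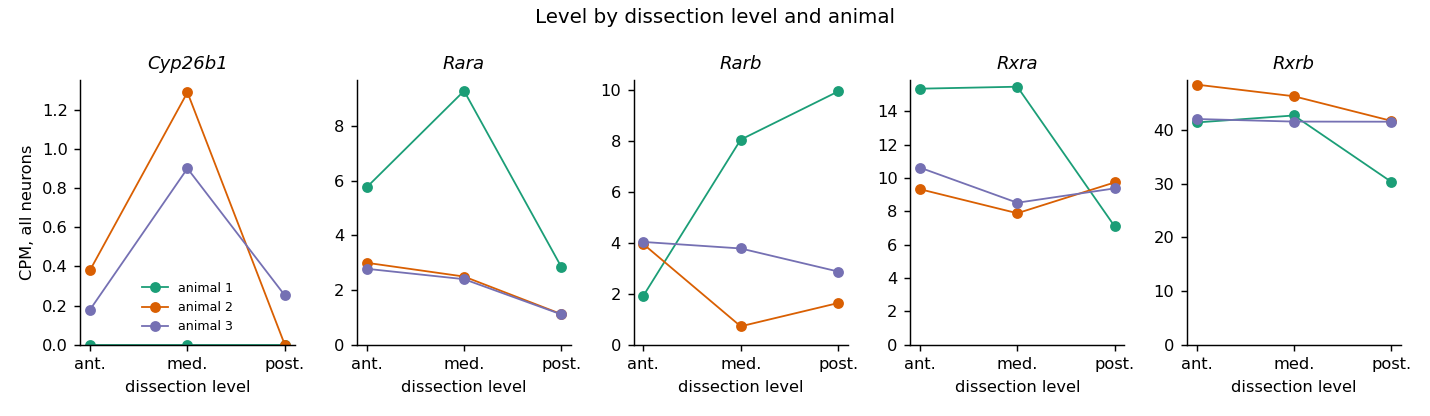
Level in CPM (y axis, from 0) of the 5 members over all neurons at the anterior, medium and posterior dissection level (x axis); points are sums per animal and lines join the levels of 1 animal. Rara is lower at the posterior than at the anterior level in 3 of 3 animals, and Rarb is higher at the posterior level in animal 1 only.

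Within clusters the levels could be compared in 8 cases. The percent of genes called with edgeR was 0 in clusters 1, 2 and 3 for both contrasts and in cluster 6 for the medium level, with 302 to 639 genes at an unadjusted p under 0.05 and 0 to 30 called by DESeq2. In cluster 5 it was 0.00896% at the posterior level, 1 of 11156 genes (Nnat, named because it is the only call; 2 genes with the animal as a block, and 0 without animal 1 or without animal 2). Members called were 0 in each by either tool, and 0 were at an unadjusted p under 0.05. Cyp26b1 could be tested in cluster 6, where it stood at 12.5 and 3.43 CPM at the medium and 6.39 and 0.721 CPM at the anterior level in animals 2 and 3, and at 0 at both levels in animal 1. The difference was 1.09 on the log2 scale, with an SE of 2.22 and an adjusted p of 1.00 by edgeR. Rara in cluster 5 stood at 20.2, 0 and 19.3 CPM at the anterior level in animals 1, 2 and 3 and at 2.64, 0 and 0.796 CPM at the posterior level. It was thus lower in 2 animals and without a count at either level in the other. The log2 difference was -3.75 with an SE of 2.22, at an adjusted p of 0.98 by edgeR. Of the genes of the pathway lists, 29 were tested over all neurons and 0 were called by edgeR or DESeq2 at either level, with 2 and 3 at an unadjusted p under 0.05. Their median log2 fold change was -0.15 at the posterior level, where that of all genes was 0.01, and 0.09 at the medium level, where that of all genes was -0.02.

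In the sections all 6 members had counts in both libraries. Each section is 1 library, so intervals are exact Poisson intervals of 95% that cover counting error only, and no test was made. Over all spots of S4 and S8, Cyp26b1 stood at 7.70 CPM (5.95 to 9.82) and 6.10 CPM (4.34 to 8.34), from 65 and 39 counts. Rxrg, the member without a row in the cell table, stood at 5.81 CPM (4.30 to 7.68) and 5.48 CPM (3.82 to 7.62). Rxrb was at 48.6 and 48.5 CPM, Rxra at 13.7 and 15.2 CPM and Rarb at 6.40 and 5.01 CPM, each with overlapping intervals. Rara stood at 4.03 CPM (2.79 to 5.63) in S4 and 7.51 CPM (5.54 to 9.96) in S8.

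Spots were grouped with each gene centred within its section and without the retinoid genes, which gave 10 zones, 9 of them in both sections. Cyp26b1 was highest in zone 2 of each section, a zone led also by Ccn2, Nr4a2, Sst and Kcng1. There it stood at 30.8 CPM in S4 (33 counts, interval 21.2 to 43.3) and 24.6 CPM in S8 (21 counts, 15.2 to 37.7), against means of 4.51 and 3.91 CPM over the other 8 zones. With spots grouped without centring, the group that shared the most spots with zone 2 had 16.2 CPM in S4 and 17.8 CPM in S8. This grouping, of 12 groups, agreed only in part with the zones (adjusted Rand index 0.35, where 1 means identical groupings). The next values were 11.9 CPM in zone 1 of S4 (6.15 to 20.8) and 12.3 CPM in zone 9 of S8, which held 4 counts (3.36 to 31.6). Cyp26b1 was 1 of 81 genes among 11842 (0.684%) that had the same highest zone in both sections at 4 times the mean of the others or more, and the 1 member of the 6 to do so. A count was found in 18.8% of the spots of zone 2 in S4 and 15.3% in S8, against 0% to 6.52% in the other zones.

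Most of the dissociated cells with Cyp26b1 were corticothalamic-like, and 3 of the 4 corticothalamic markers, Foxp2, Syt6 and Rprm, were lower in zone 2 than in zone 5 in both sections. Foxp2 stood at 4.67 and 8.21 CPM in zone 2 of S4 and S8 and at 69.2 and 47.5 CPM in zone 5, and Syt6 at 4.67 and 0 CPM against 36.7 and 32.4 CPM. The remaining marker, Crym, was at 263 and 170.1 CPM in zone 2 and at 209.5 and 203 CPM in zone 5, higher in zone 2 of S4 and lower in that of S8. Among dissociated cells, pooled over animals, Crym stood at 423 CPM in cluster 6, 887 CPM in cluster 4 and 439 CPM in cluster 7. Cyp26b1 in zone 5 was at 6.29 CPM in S4 (2.31 to 13.7) and 2.32 CPM in S8 (0.280 to 8.36). Layer 6b markers differed among themselves. Ccn2 stood at 63.5 and 63.3 CPM in zone 2 and at 70.2 and 77.6 CPM in zone 5, and Cplx3 and Nxph4 were higher in zone 5. Moxd1 was higher in zone 2, at 14.001 and 12.9 CPM against 3.14 and 5.79 CPM. The 5 inhibitory markers summed to 1204 and 1036 CPM in zone 2, the highest of the 9 zones in each section, where the others ran from 600.4 to 850.4 CPM in S4 and from 509 to 1003 CPM in S8. This order came from Sst (819 and 747 CPM in zone 2). Vip was lowest of the 9 zones there in both sections (27.1 and 28.2 CPM), and Gad1 stood at 178 CPM in S4 and at 127 CPM in S8, where it was the lowest of the 9. Among dissociated cells the 3 of these markers with a row summed to no more than 4.14 CPM in any cluster, and the part of inhibitory neurons in the Cyp26b1 level of zone 2 was not tested. Of the spots with Cyp26b1, 40 of 50 in S4 and 30 of 37 in S8 had a count of Sst, against 728 of 1022 and 667 of 951 of all spots. Fewer cells of a type and less RNA per cell cannot be told apart in spots.

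**Figure D4:**
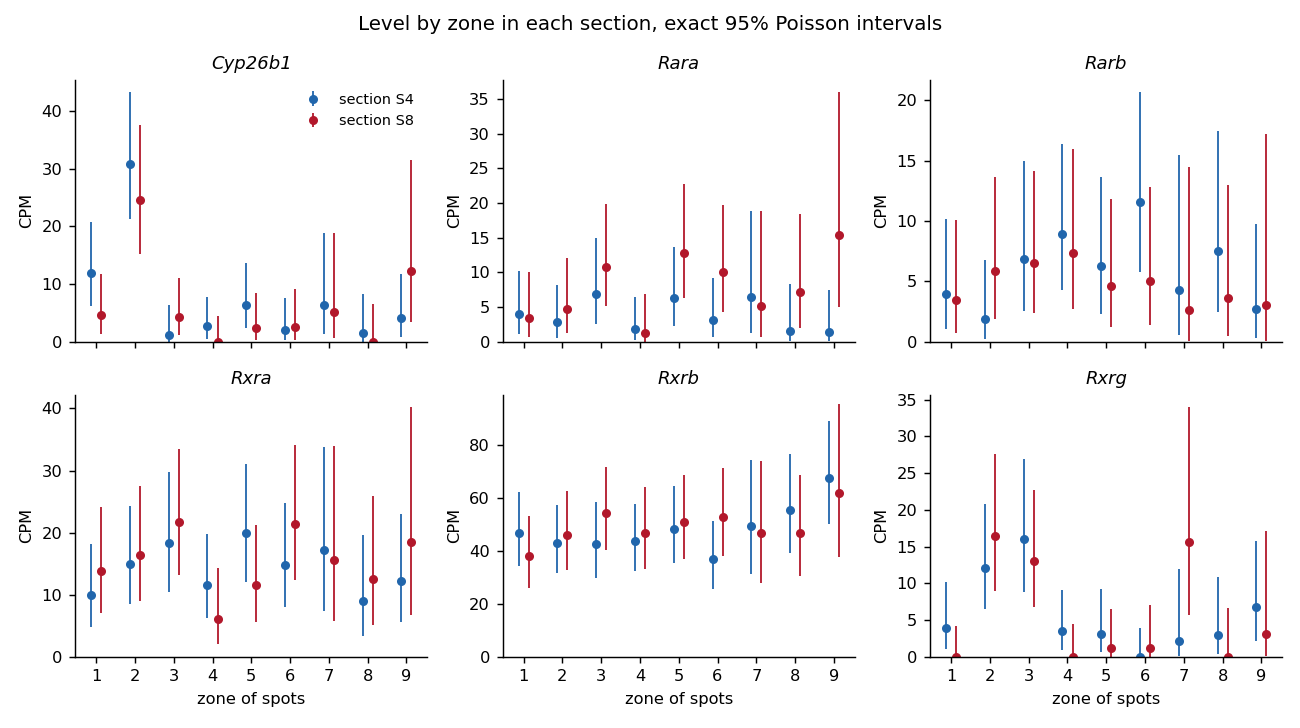
Level in CPM (y axis, from 0, own scale per gene) of the 6 members in the 9 zones of spots present in both sections (x axis); blue points are section S4, red points section S8, and bars are exact 95% Poisson intervals. Cyp26b1 peaks in zone 2 in both sections, Rxrg is high in zones 2 and 3 and, in S8, in zone 7, and the other 4 members have overlapping intervals over most zones.

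Rxrg, which encodes RXRγ, an RXR of restricted tissue distribution, was high in zones 3 and 2. In S4 it stood at 16.03 CPM in zone 3 (14 counts, 8.76 to 26.9) and 12.1 CPM in zone 2 (13 counts, 6.46 to 20.8), and in S8 at 13 CPM (12 counts, 6.72 to 22.7) in zone 3 and 16.4 CPM (14 counts, 8.98 to 27.6) in zone 2. Zone 3 was led by Calb2, Nnat, Trh and Dlk1. In S8 zone 7, led by Ptgds, Mgp and Myoc, was as high at 15.6 CPM from 6 counts (5.73 to 34.0), but in S4 it had 1 count. The remaining zones ran from 0 to 6.74 CPM in S4 and from 0 to 3.08 CPM in S8. In zone 1, led by Tshz2, Nrep and Slc17a6, Rxrg had 4 counts in S4 and 0 in S8, where up to 3.45 CPM was not detectable. The highest zone was 3.70 times the mean of the others in S4 and 3.85 times in S8. Of the spots with Rxrg, 84.8% in S4 and 87.5% in S8 had a count of Nnat, against 52.3% of all spots in each. Over the 18 sums per zone and section, Nr2f2, a COUP-TF nuclear receptor that also leads zone 3, had the level most like that of Rxrg (Pearson r = 0.81).

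The other 4 members had lower folds between zones. The fold of the highest zone over the mean of the others was 1.48 and 1.49 in S4 and S8 for Rxra, 1.48 and 1.29 for Rxrb, 2.02 and 2.23 for Rara and 2.18 and 1.69 for Rarb. Of the 9 shared zones, Rxrb was highest in zone 9 of both sections, a zone led by haemoglobin genes, at 67.4 CPM (50.02 to 88.8) and 61.7 CPM (37.7 to 95.3), and it stood at 68.9 CPM in zone 10, which S4 alone held. Rarb was highest in zone 6 of S4, led by Deptor and Fezf2, at 11.6 CPM (5.77 to 20.7) from 11 counts, and in zone 4 of S8, led by Cux2 and Lamp5, at 7.35 CPM (2.70 to 15.99) from 6 counts. Rara was highest in zone 3 of S4, at 6.87 CPM (2.52 to 14.95) from 6 counts, and in zone 9 of S8, at 15.4 CPM (5.01 to 35.99) from 5 counts. In zone 5 it stood at 6.29 CPM (2.31 to 13.7) and 12.7 CPM (6.36 to 22.8), within those intervals.

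Of the pathway lists, 31 names had at least 20 counts in each section, and 0 of them had the same highest zone at 4 times the others in both. Rai14 had its highest level in zone 5 of both sections (49.2 and 19.7 CPM, 5.18 and 3.61 times the mean of the others). Aldh1a2, a retinal dehydrogenase, had 20 and 8 counts in the sections, too few in S8 to be among the 31. Its highest level was in zone 7 of both (17.2 and 5.20 CPM), but the S8 value lay below the 7.80 CPM that 3 counts make there. Nr4a2 was highest in zone 2, as was Cyp26b1, at 162 and 144 CPM against means of 56.0 and 60.1 CPM. Dhrs3, which followed Cyp26b1 among cells, had 23.1 CPM in its highest zone of S4, zone 5, and 36.4 CPM in that of S8, zone 7.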

How the data were processed

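The deposited tables hold whole counts of each gene, by cell or by spot, and are not normalized. Whether the cell counts are reads or molecules is not given in the sources used here, so intervals cover counting error only. The submitters' processing notes name Seurat and NCBIM37 and, for the sections, Space Ranger and mm10; the aligner and filters are not given in the sources used here. A deposited table gave each cell's animal. The members and all gene lists were chosen with earlier results of these data known. Named were the members, list genes that passed a level test or had 50 CPM or more at 4 times the other clusters, and the 3 genes most like each member; Dhrs3, Rdh12, Crabp1, Aldh1a1 and other genes outside the rule were named after their values were seen.

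Clusters and zones were made in scanpy 1.11.5 (2000 variable genes, 30 components, 15 neighbours, Leiden resolution 1), leaving out 61 retinoid names. No doublet caller was run. Sums of at least 10 cells were scaled with edgeR 4.0.16 (TMM); sums per sample had been planned for print, but sums per animal are printed instead, a change made after seeing the data, since few samples held 10 cells of a cluster. Levels across clusters or zones were not tested, since the same cells or spots defined them. Levels (sums of at least 5 cells) were tested with filterByExpr, glmQLFit and glmQLFTest and called where the p, adjusted after Benjamini and Hochberg, was under 0.05; the script was checked on simulated data. DESeq2 1.42.0, other size factors, no filter, blocks and left-out animals were alternatives. Sums pair by animal, as the deposited table gives it, but the main fits had no term for the animal and so ignored this pairing. The animal as a block was among the alternatives. Deviations of sums of the same animal correlated by 0.048 to 0.22. The RefSeq promoter windows carry the names of all 6 members. No count column lacked a sample (0).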

Additional observations from a re-analysis of the deposited data

Results flagged for a closer look

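Among the sums of at least 10 cells per sample in clusters 1 to 4, the highest sample stood apart from the rest of its group, by Dixon's ratio at 95%, in 5 of 17 groups. Chance flags about 1 group in 20, and groups in which most samples are at 0 are flagged by any sample with a count. Cyp26b1 in cluster 3 stood at 4.13 CPM in sample 16, from 10 counts in 1 of 15 cells, with 0 in the other 5 samples. Rarb in the same cluster stood at 1.85 CPM in sample 18, from 4 counts in 1 of 11 cells, with 0 in the other 5. Rara stood at 1.19 CPM in sample 15 of cluster 1 (2 of 25 cells; next sample 0.185 CPM) and at 9.87 CPM in sample 16 of cluster 2 (2 of 12 cells; next 2.54 CPM). Rarb in cluster 4 stood at 24.0 CPM in sample 2, from 29 counts in 5 of 12 cells, against 4.48 CPM in the next of the 5 samples. Each of these 5 values rests on 1 to 5 cells.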

How the results depend on the processing

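Of 48 values of the members by cluster under the alternatives, 44 moved by no more than 1 SD over animals (or stayed in the binomial interval), and of 36 values by zone 35 stayed in their interval. Sums per sample, of which cluster 6 and cluster 7 had 1 each, gave 8.15 CPM for Cyp26b1 and 74.2 CPM for Rxrb in cluster 6 and 0.372 CPM for Rarb in cluster 7. At Leiden resolution 0.5, Rxra in the cluster matched to cluster 8 stood at 4.95 CPM. Without centring, the group matched to the highest zone of Cyp26b1 in S4 had 16.2 CPM. The groups drawn without centring agreed only in part with the zones (adjusted Rand index 0.35). With an animal left out, the means of the members' highest clusters ran from 1.54 to 5.78 CPM for Cyp26b1, 16.3 to 35.0 for Rxra, 51.8 to 57.6 for Rxrb, 5.92 to 10.3 for Rara and 6.02 to 8.32 for Rarb.

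No member passed the threshold in any of 69 level values under the alternatives (lowest adjusted p = 0.51). Signs turned in 11: Rarb, posterior, gave -0.14 with the animal as replicate block, -0.87 in sums per sample with the sample as replicate block and -0.82 to 1.06 with an animal left out; at the medium level Rarb gave -0.40, -1.38 and -0.81 to 0.90, Rara -0.27 in sums per sample and -0.23 to 0.40, and Rxrb 0.0018 with DESeq2, 0.0038 with RLE factors and -0.036 to 0.0040. Called genes over all neurons were 59 (posterior) and 6 (medium) with DESeq2, against 1 and 1, 14 and 1 with the animal as replicate block, 92 and 1 in sums per sample, and 1 to 2 and 0 to 1 with an animal left out; without animal 1 the medium call was lost. Within clusters DESeq2 called, posterior, 2 (cluster 1), 3 (cluster 2), 13 (cluster 3) and 12 (cluster 5) genes and, medium, 2 (cluster 1), 30 (cluster 3) and 5 (cluster 6). No filter gave 2 and 10 in cluster 3, 9 in cluster 5 and 5 in cluster 6. Sums per sample gave 1 in cluster 1, posterior, and could not be fitted in clusters 2, 3, 5 and 6. The replicate block gave 2 in cluster 5 and changed no other within-cluster count. With an animal left out the counts ran from 0 to 3 (cluster 1, posterior), 0 to 2 (cluster 3, posterior), 0 to 30 (cluster 3, medium), 0 to 2 (cluster 5) and 0 to 4 (cluster 6). The higher ends came without animal 3 in clusters 1, 3 and 5 and without animal 2 in cluster 6. The cause was not tested. Counts of Cyp26b1, Rara and Rarb in few cells limit all their values.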
